A study of Mus musculus with 6 samples.

Results

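The amino acid transporter genes were defined by gene symbol as the measured members of the solute carrier families SLC1, SLC3, SLC6, SLC7, SLC36, SLC38 and SLC43, and 59 of the 22180 genes measured met that definition. Their mRNA was compared between cells sorted as Ebf2-GFP positive (labelled Ebf2(GFP)+:Pdgfra+) and as Ebf2-GFP negative (Ebf2(GFP)-:Pdgfra+), on 3 Affymetrix arrays each. All cells were taken at E14.5 from the dorsal body wall of embryos of strain 129SV that carried 1 Ebf2 allele with a GFP reporter, and all were sorted as PDGFRα positive, so the Ebf2-GFP negative cells carry the reporter allele too. PDGFRα is a receptor of mesenchymal cells, and Ebf2 is a transcription factor that the series title names as a marker of brown and beige fat precursors. Whether replicates were separate litters is not stated in the labels, and p-values therefore cover only the spread among these arrays, which may be technical.

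Amino acid transporters are membrane proteins that carry amino acids, and in some families related small molecules, across the plasma membrane or out of lysosomes. The SLC7 light chains work as pairs with an SLC3 heavy chain, SLC1 and SLC38 proteins couple uptake to sodium, and SLC6 proteins carry neurotransmitters, taurine, creatine and betaine besides amino acids. In fat, Slc7a10 (ASC-1) is known as a surface marker of white adipocytes and Slc36a2 (PAT2) as one of brown and beige adipocytes. Slc7a11 (xCT) imports cystine in exchange for glutamate and so supplies cysteine for glutathione.

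The deposited values are log2 expression per probe set. Array medians lay between 6.657 and 6.712. Precision is limited by there being only 3 arrays a group. Ebf2 itself was at 12.0, 12.0 and 11.9 on the Ebf2-GFP positive arrays, against 8.16, 8.60 and 9.21 on the Ebf2-GFP negative arrays. Pdgfra was at 13.1 ± 0.090 in Ebf2-GFP positive cells and 12.9 ± 0.043 in Ebf2-GFP negative cells (SD, n = 3 each). Macrophage and cartilage markers were present and differed between the sorted groups. The mean of 14 macrophage markers lay between 7.12 and 8.17 on the Ebf2-GFP positive arrays and between 9.48 and 10.4 on the Ebf2-GFP negative arrays, with 14 of 14 lower in Ebf2-GFP positive cells. The mean of 7 chondrocyte markers lay between 9.22 and 9.47 on the Ebf2-GFP positive arrays and between 10.9 and 11.1 on the Ebf2-GFP negative arrays, with 7 of 7 lower. With no detection calls to go by, genes with a mean under log2 6.78, the 40th percentile, were called dim.

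Transporter genes that differed were mostly lower in Ebf2-GFP positive cells. Of the 59 members, 7 fell and 1 rose in limma's test (Benjamini-Hochberg adjusted over every gene measured, threshold 0.05), which is 13.6% of the members, where 6.49% of all genes passed. Across all genes 3.84% were lower and 2.65% higher. The genes that fell were Slc7a11, Slc6a13, Slc7a8, Slc38a3, Slc7a2, Slc43a2 and Slc6a6, and the gene that rose was Slc1a5. Slc7a11, Slc6a13, Slc7a8 and Slc38a3 were at least 2-fold lower, which was true of 1.39% of all genes. The groups did not overlap for 19 members, 16 lower and 3 higher, whereas 22.0% of all genes did not overlap. The median log2 change over the members was −0.08, beside 0.02 over all genes. A total of 25 members lay below the dim mark, and 1 of these (Slc43a2) passed. Of the 34 members at or above it, 7 passed, where 9.75% of all genes above the mark did. The count of 8 members became 3, 4 or 4 without Ebf2-GFP positive replicate 1, 2 or 3 and 4 without Ebf2-GFP negative replicate 1. Slc7a11, Slc6a13 and Slc38a3 passed whichever array was left out. With the replicate number as a block, 12 members passed, 11 lower and 1 higher, and they held the same 8.

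**Figure D1:**
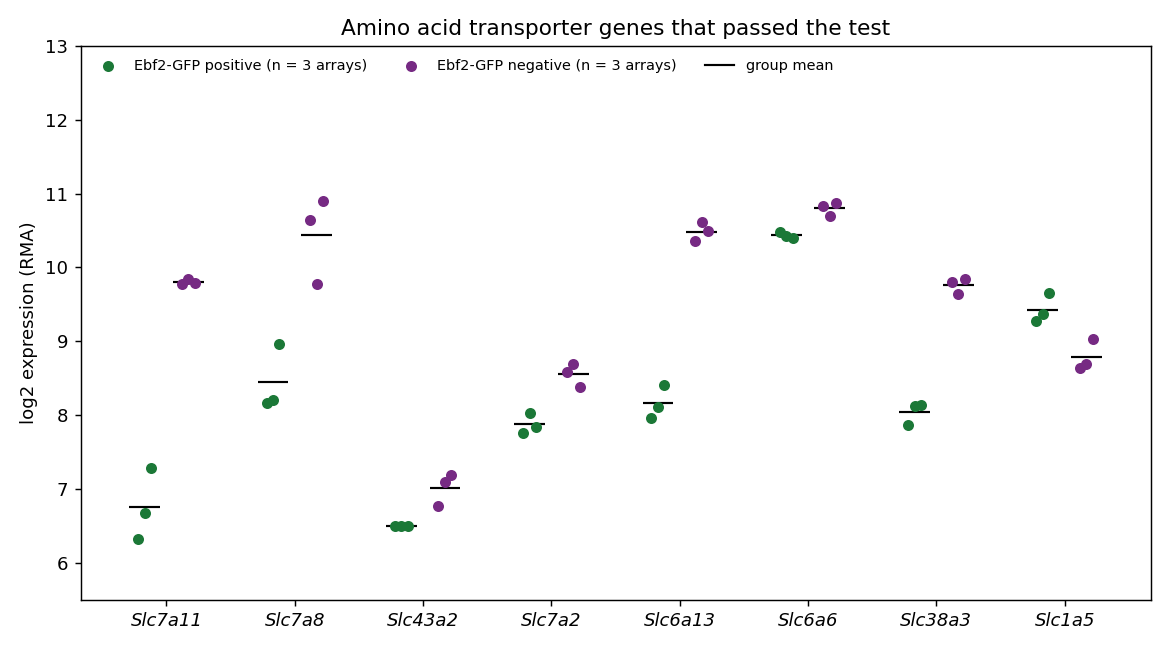
Log2 expression (y axis) of the 8 transporter genes that passed, on each of 3 Ebf2-GFP positive arrays (green, left of each pair) and 3 Ebf2-GFP negative arrays (purple, right), with a bar at each group mean. The groups do not overlap for any of the 8, and Slc1a5 alone lies higher in the Ebf2-GFP positive arrays.

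The largest difference was that of Slc7a11, the light chain of the cystine and glutamate exchanger. It was at 6.32, 6.68 and 7.28 on the Ebf2-GFP positive arrays, against 9.78, 9.84 and 9.78 on the Ebf2-GFP negative arrays. The Ebf2-GFP negative arrays lay within 0.1 of each other, whereas the Ebf2-GFP positive arrays spread more widely (SD 0.485 against 0.034). The gene was 8.22-fold lower (log2 change −3.04 ± 0.22 SE, limma adjusted p = 0.000969). Its mean in Ebf2-GFP positive cells (6.76) lay just below the dim mark, so the fold could be a lower bound. Another Slc7a11 probe set, with a mean of only 4.30, fell by 0.45 ± 0.06 SE (limma adjusted p = 0.0097 when probe sets were fitted one by one). The average of both probe sets gave a log2 change of −1.74 (limma adjusted p = 0.000862), so the size of the decrease depends on the probe set taken.

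The Slc7a11 gene lies on chromosome 3 of the mouse genome, and its promoter is shown because amino acid deprivation is known to act on this gene through ATF4, a transcription factor of the amino acid response that binds elements of the form TGATGNAA. The window of 300 bases from 250 before to 50 after the annotated start, at chr3:50443564-50443863 on the minus strand (RefSeq, GRCm38.p6), holds this motif on both strands, with matches in capitals.
Slc7a11 promoter: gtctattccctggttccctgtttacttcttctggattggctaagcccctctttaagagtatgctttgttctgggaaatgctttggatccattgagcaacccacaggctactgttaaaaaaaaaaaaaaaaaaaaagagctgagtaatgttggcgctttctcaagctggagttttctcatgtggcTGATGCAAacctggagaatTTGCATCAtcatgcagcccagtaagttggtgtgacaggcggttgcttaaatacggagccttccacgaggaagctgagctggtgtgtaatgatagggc

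The matches start 66 and 47 bases before the annotated start and face each other, the second being the reverse complement of the first. Among the 42 members with a promoter in the table used here, 4 genes held TGATGNAA on either strand, namely Slc7a11, Slc7a7, Slc1a4 and Slc6a21. Counted by window, the motif was in 3.97% of all promoter windows and in 5 of the 61 windows of members. It was in 7 of 21 windows of the ATF4 and amino acid response list described further on. Matches in 3 of these transporter genes are set side by side, each with 10 bases on either side.
Slc7a11, forward match: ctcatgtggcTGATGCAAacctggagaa
Slc7a11, reverse match: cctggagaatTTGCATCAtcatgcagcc
Slc1a4, reverse match: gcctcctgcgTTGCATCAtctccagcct
Slc7a7, forward match: acctagaagcTGATGCAAcagcttcccc

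The Slc1a4 match, at chr11:20332700-20332727 on the minus strand, holds the same 8 letters as the reverse match of Slc7a11. The Slc7a7 match lies at chr14:54417928-54417955 on the minus strand. Slc1a4 (ASCT1), an exchanger of small neutral amino acids, differed by −0.08 ± 0.07 SE (limma adjusted p = 0.62), so promoters with the same letters belonged to a gene that fell and to one that did not pass. Other motifs were also searched on both strands. TGACNNNGC, the core bound by NRF2, the regulator of antioxidant genes, was in 12.4% of all windows and in 9 of the 61 windows of members. Those windows belong to 8 members, of which Slc6a13 was the only one that had passed. Of the 8 members that passed limma's test, only 4 had a promoter window. Slc38a3, Slc7a2, Slc1a5 and Slc6a6 had none and could not be searched for any motif. CCCNNGGG, the palindromic core bound by EBF factors, was in 13.7% of all windows and in 13 of the 61 windows of members. A match is a description of letters and not evidence of binding.

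Slc3a2, the heavy chain (4F2hc or CD98) that Slc7a11 and most other SLC7 light chains need at the membrane, was at 12.0, 12.2 and 12.1 on the Ebf2-GFP positive arrays, against 12.3, 12.3 and 12.4 on the Ebf2-GFP negative arrays. The groups did not overlap, but the log2 change of −0.26 ± 0.06 SE did not pass (limma adjusted p = 0.0718, or 0.0454 with the replicate block). Slc3a1, the heavy chain known from kidney and intestine, lay below the dim mark with a log2 change of −0.005 ± 0.070 SE (adjusted p = 0.984).

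Slc7a8 (LAT2), a light chain that exchanges neutral amino acids, was at 8.17, 8.20 and 8.97 on the Ebf2-GFP positive arrays, against 10.6, 9.77 and 10.9 on the Ebf2-GFP negative arrays. It was 3.99-fold lower (−2.00 ± 0.34 SE, limma adjusted p = 0.0189). Its spread within groups was wide (SD 0.453 and 0.591 in Ebf2-GFP positive and negative cells), and the call ended without Ebf2-GFP negative replicate 1 or 3 or Ebf2-GFP positive replicate 1 or 2 (adjusted p up to 0.0885). Slc7a7 (y+LAT1), a light chain that exports cationic amino acids and is known from macrophages, was at 8.42, 8.56 and 8.66 on the Ebf2-GFP positive arrays, against 9.36, 8.78 and 9.86 on the Ebf2-GFP negative arrays. These values did not overlap, but the log2 change of −0.79 ± 0.25 SE did not pass (adjusted p = 0.152). In both groups the arrays stood in the same order for Slc7a8, for Slc7a7 and for the macrophage marker mean, which was 7.12, 7.87 and 8.17 on the Ebf2-GFP positive arrays and 9.98, 9.48 and 10.4 on the Ebf2-GFP negative arrays. Slc38a3 shared that order too. Slc7a11, Slc6a13 and also Slc1a5, which rose, shared it on the Ebf2-GFP positive arrays and not on the Ebf2-GFP negative ones. Slc6a6 shared it on the Ebf2-GFP negative arrays only, and Slc7a2 in neither group. The equal Ebf2-GFP positive values of Slc43a2 have no order, and its Ebf2-GFP negative arrays did not share it. Few orders are possible with 3 arrays a group, and how many of all genes share this one was not counted. Among the macrophage markers, Csf1r, a growth factor receptor, fell 7.18-fold and Adgre1, a macrophage surface receptor, 9.94-fold (limma adjusted p = 0.00766 and 0.00923). The lysozyme gene Lyz2 and the complement gene C1qc fell 4.99-fold and 5.26-fold (adjusted p = 0.0104 and 0.0106), and without Ebf2-GFP positive replicate 2 neither passed (0.0563 and 0.0568). Cd68 passed with all arrays and not with any 1 left out (adjusted p up to 0.132). The calls of Ptprc and Fcgr1 ended for most of the arrays left out (up to 0.139 and 0.0679). The part of the macrophage markers in the values of Slc7a8 and Slc7a7 was not tested, and in such bulk samples fewer cells of a type and less RNA per cell cannot be told apart.

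**Figure D2:**
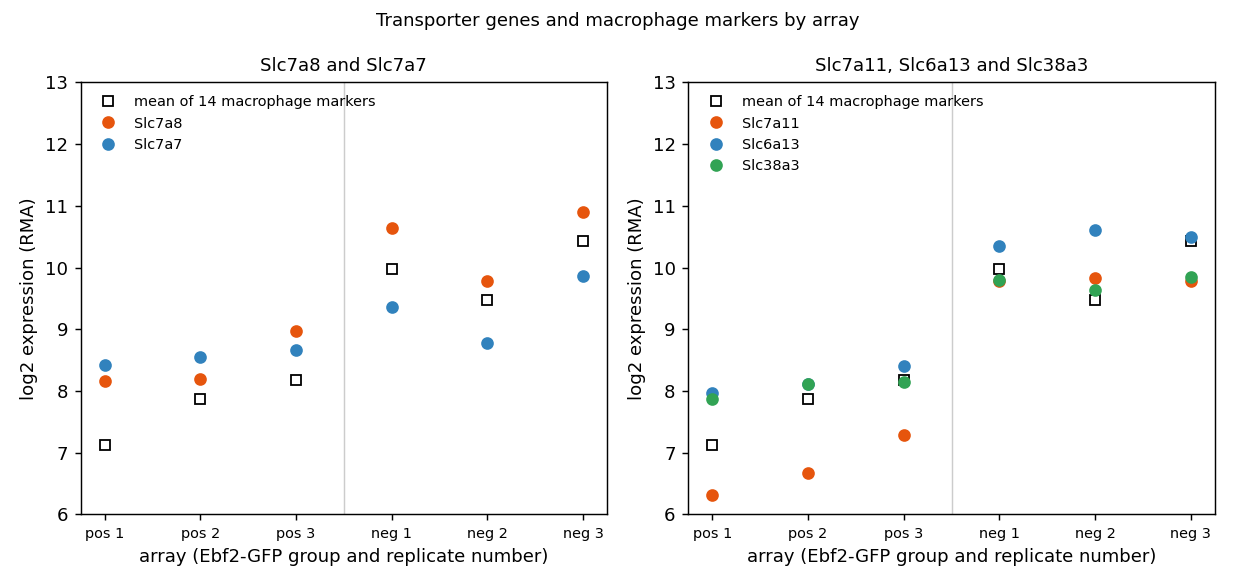
Log2 expression (y axis) on each array (x axis, Ebf2-GFP positive replicates 1 to 3, then Ebf2-GFP negative replicates 1 to 3) of Slc7a8 and Slc7a7 (left) and of Slc7a11, Slc6a13 and Slc38a3 (right), with the mean of 14 macrophage markers as open squares in both panels. The squares and Slc7a8 both lie lowest at Ebf2-GFP negative replicate 2 within that group, whereas Slc7a11 lies between 9.78 and 9.84 on all 3 Ebf2-GFP negative arrays.

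The other SLC7 light chains did not pass. Slc7a5 (LAT1), the main light chain for large neutral amino acids in dividing cells, was at 11.0 ± 0.162 in Ebf2-GFP positive cells and 11.0 ± 0.114 in Ebf2-GFP negative cells (SD, n = 3 each). Its log2 change was −0.04 with a 95% interval of −0.28 to 0.19 (adjusted p = 0.877). Slc7a6 (y+LAT2) had a log2 change of −0.09, with a 95% interval of −0.26 to 0.08 (adjusted p = 0.602). Slc7a10, the white adipocyte marker, was at 9.20, 9.26 and 9.51 on the Ebf2-GFP positive arrays, against 8.56, 9.24 and 9.30 on the Ebf2-GFP negative arrays. These overlapped, and the log2 difference, 0.29 ± 0.20 SE, did not pass (adjusted p = 0.554). Its 95% interval was wide, from −0.20 to 0.77. The remaining SLC7 light chains, Slc7a9, Slc7a12, Slc7a13 and Slc7a15, lay below the dim mark and did not pass.

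In the SLC43 family, Slc43a2 (LAT4), a facilitated carrier of branched-chain amino acids and phenylalanine, was at 6.49 on all 3 Ebf2-GFP positive arrays, against 6.77, 7.09 and 7.18 on the Ebf2-GFP negative arrays. The Ebf2-GFP positive values were identical to every deposited digit (SD 0), as they were for 215 of all genes, and the spread within that group is therefore not informative. The same value, 6.49351, stood for Trp63 on those arrays and for Slc6a7 on Ebf2-GFP positive replicate 1. Whether it is a measured level was not tested. The log2 change of −0.52 ± 0.11 SE passed (limma adjusted p = 0.0361), but the call ended when any 1 array other than Ebf2-GFP negative replicate 1 was left out (adjusted p up to 0.13), and the gene lay below the dim mark. Slc43a1 (LAT3), a related carrier, was at 9.56 ± 0.00021 in Ebf2-GFP positive cells and 9.83 ± 0.177 in Ebf2-GFP negative cells (SD, n = 3 each) and did not pass (adjusted p = 0.179). Its Ebf2-GFP positive values were 9.56485, 9.56448 and 9.56448, so the SD of that group is not informative either. Slc43a3, known as a purine base carrier, differed by 0.22 ± 0.10 SE (adjusted p = 0.312) with groups that did not overlap.

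Among the cationic amino acid carriers, Slc7a2 (CAT2), which takes up arginine and lysine, was at 7.76, 8.02 and 7.84 on the Ebf2-GFP positive arrays, against 8.58, 8.70 and 8.39 on the Ebf2-GFP negative arrays. It fell 1.60-fold (−0.68 ± 0.10 SE, limma adjusted p = 0.0129). The call ended without Ebf2-GFP negative replicate 1 or Ebf2-GFP positive replicate 1 or 3 (adjusted p up to 0.0615). Slc7a1 (CAT1), the general arginine carrier, had a log2 change of −0.22 ± 0.07 SE with groups that did not overlap, and it did not pass (adjusted p = 0.156). Slc7a14, a lysosomal relative, lay below the dim mark and differed by −0.40 ± 0.10 SE (adjusted p = 0.0711, or 0.0386 with the replicate block). Slc7a3 and Slc7a4 lay below the mark as well and did not pass.

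Of the 17 SLC6 genes, 2 fell and none rose, and 12 lay below the dim mark. Slc6a13 (GAT2) carries GABA and taurine and is known from liver, kidney and the leptomeninges. It was at 7.96, 8.11 and 8.41 on the Ebf2-GFP positive arrays, against 10.4, 10.6 and 10.5 on the Ebf2-GFP negative arrays. It was 5.01-fold lower (−2.32 ± 0.13 SE, limma adjusted p = 0.00039), the smallest p-value of all members. Slc6a6, the taurine transporter, was at 10.5, 10.4 and 10.4 on the Ebf2-GFP positive arrays, against 10.8, 10.7 and 10.9 on the Ebf2-GFP negative arrays. That difference was small but larger than the spread within groups (1.29-fold lower, −0.37 ± 0.06 SE, limma adjusted p = 0.0207), and the call ended when any 1 array other than Ebf2-GFP negative replicate 2 was left out (adjusted p up to 0.0864). Slc6a12 (BGT1), which carries betaine and GABA, and Slc6a17, a vesicular carrier of neutral amino acids in neurons, had log2 changes of −0.47 ± 0.15 SE and −0.61 ± 0.21 SE. They did not pass (adjusted p = 0.142 and 0.184) except with the replicate block (0.0361 and 0.0157). Slc6a8, the creatine transporter, differed by 0.06, with a 95% interval of −0.08 to 0.20 (adjusted p = 0.691). The monoamine transporters Slc6a2, Slc6a3 and Slc6a4, the glycine transporter Slc6a5 and the proline transporter Slc6a7 lay below the mark and did not pass.

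Because Slc6a13 is known from the meninges, genes used as markers of meningeal fibroblasts were set beside it, chosen after the values were seen and therefore with no reading of their count. Of 12 such genes 8 passed, all lower. That count is not comparable with the 3.84% of all genes that were lower, because the choice came after the values. Cdh1 is among the 8 and is counted with the epidermal markers as well. Ptgds, a prostaglandin D2 synthase of the arachnoid, fell 4.37-fold and Slc22a6, an organic anion transporter, 2.02-fold (limma adjusted p = 0.00535 and 0.00137). The forkhead gene Foxc2 fell 2.08-fold and the zinc finger gene Zic2 2.35-fold (adjusted p = 0.00126 and 0.00122). Aldh1a2, a retinoic acid synthesis gene, differed by 0.02 ± 0.13 SE (adjusted p = 0.968), and Slc47a1 did not pass either. Crabp2 lay higher in Ebf2-GFP positive cells, opposite to the genes that passed, by 0.26 ± 0.10 SE with no overlap of the groups. That rise fell short of the threshold (limma adjusted p = 0.236). So did the decrease of Col15a1, also without overlap (−0.44 ± 0.11 SE, adjusted p = 0.0799). The part of these cells in the values of Slc6a13 was not tested.

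The SLC38 family held 1 member that fell among 11. Slc38a3 (SNAT3), a system N carrier of glutamine, histidine and asparagine, was at 7.87, 8.12 and 8.14 on the Ebf2-GFP positive arrays, against 9.80, 9.64 and 9.85 on the Ebf2-GFP negative arrays. It was 3.29-fold lower (−1.72 ± 0.09 SE, limma adjusted p = 0.000395). The system A carriers, which take up small neutral amino acids with sodium, did not pass. Slc38a1 (SNAT1) was at 11.1 ± 0.080 in Ebf2-GFP positive cells and 10.9 ± 0.120 in Ebf2-GFP negative cells (SD, n = 3 each). Slc38a4 (SNAT4) was at 12.5 ± 0.040 in Ebf2-GFP positive cells and 12.3 ± 0.086 in Ebf2-GFP negative cells (SD, n = 3 each). Their log2 changes were 0.22 ± 0.08 SE and 0.18 ± 0.06 SE, above 0 by less than the test required (adjusted p = 0.204 and 0.19). Slc38a2 (SNAT2), the member of system A that amino acid starvation is known to induce, differed by −0.14 ± 0.13 SE (adjusted p = 0.652). Slc38a9, the lysosomal arginine sensor of mTORC1, was at 9.28, 9.25 and 9.26 on the Ebf2-GFP positive arrays, against 9.54, 9.43 and 9.48 on the Ebf2-GFP negative arrays. It just missed the threshold (−0.22 ± 0.05 SE, limma adjusted p = 0.0554). It passed after quantile normalization, without dim genes and with array weights (limma adjusted p = 0.0394, 0.0394 and 0.0438). With any 1 array left out it did not pass (adjusted p up to 0.174).

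Slc1a5 (ASCT2), the sodium-coupled exchanger best known for glutamine uptake in dividing cells, was the member that rose. It was at 9.28, 9.36 and 9.65 on the Ebf2-GFP positive arrays, against 8.63, 8.69 and 9.03 on the Ebf2-GFP negative arrays. It was 1.56-fold higher (0.64 ± 0.14 SE, limma adjusted p = 0.0439). The gap between the groups was narrow, and the call held without Ebf2-GFP negative replicate 3 and ended without any other 1 array (adjusted p up to 0.151). Another Slc1a5 probe set, with a mean of 7.15, differed by 0.01 ± 0.14 SE (limma adjusted p = 0.98 when probe sets were fitted one by one), so the rise rests on 1 of 2 probe sets, and the average of both gave 0.33 (adjusted p = 0.252). The glutamate transporters of the same family fell short of the threshold. Slc1a1 (EAAC1), which carries glutamate and cysteine, was at 7.63 ± 0.068 in Ebf2-GFP positive cells and 7.91 ± 0.117 in Ebf2-GFP negative cells (SD, n = 3 each; −0.29 ± 0.08 SE, limma adjusted p = 0.0844). Slc1a3 (GLAST), the glutamate transporter of glia that some mesenchymal cells also express, differed by −0.16 ± 0.08 SE (adjusted p = 0.396), and Slc1a2, Slc1a6 and Slc1a7 did not pass.

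None of the 4 SLC36 genes, the proton-coupled carriers, passed, and their log2 changes lay between −0.10 and 0.19. Slc36a2, the brown and beige adipocyte marker, was at 5.66 ± 0.048 in Ebf2-GFP positive cells and 5.76 ± 0.097 in Ebf2-GFP negative cells (SD, n = 3 each), below the dim mark in both. Its log2 change of −0.10 had a 95% interval of −0.26 to 0.06 (adjusted p = 0.534). Slc36a1, a lysosomal carrier, and Slc36a4 differed by 0.06 ± 0.10 SE and 0.19 ± 0.11 SE (adjusted p = 0.832 and 0.446).

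**Figure D3:**
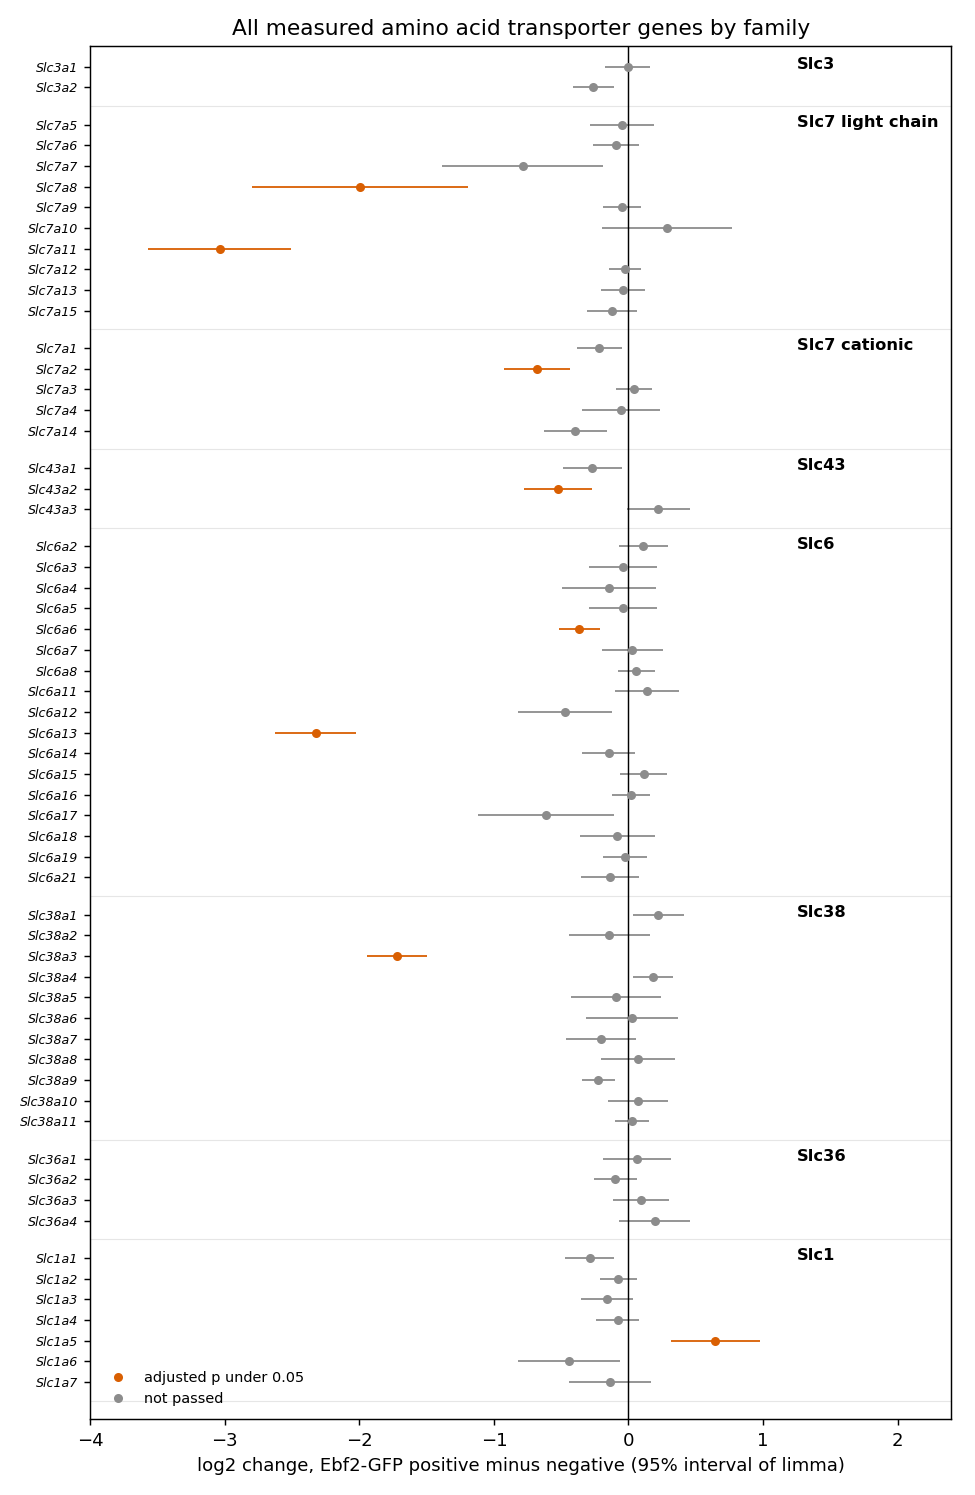
Log2 change (x axis, Ebf2-GFP positive minus Ebf2-GFP negative, with limma's 95% interval) of all 59 transporter genes (rows), grouped by family, with the 8 that passed in orange. The decreases of at least 2-fold are those of Slc7a8 and Slc7a11 among 10 SLC7 light chains, Slc6a13 among 17 SLC6 genes and Slc38a3 among 11 SLC38 genes.

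The 10 members with the highest mean probe set value were Slc38a2, Slc38a4, Slc3a2, Slc43a3, Slc36a4, Slc6a8, Slc7a6, Slc38a1, Slc7a5 and Slc1a4. None of them passed limma's test, although 3 had an unadjusted p under 0.05. Their log2 changes lay between −0.26 and 0.22, and their 95% intervals between −0.45 and 0.46. Probe set values do not rank transcripts of different genes, so this order describes the array only.

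Genes that work with the transporters were examined in 5 lists with 115 entries, of which 109 were measured. In the list of ATF4 and the amino acid response, none of 19 genes passed limma's test, 2 had an unadjusted p under 0.05, and the median log2 change was −0.05, beside 0.02 over all genes. Asns, asparagine synthetase, Chac1, which breaks down glutathione, and Trib3, a pseudokinase, are known targets of ATF4. They differed by −0.05 ± 0.06, −0.08 ± 0.09 and 0.06 ± 0.11 SE (adjusted p = 0.768, 0.744 and 0.858), and Chac1 lay below the dim mark. The largest decreases of the list were those of Atf3 and Cebpb, −0.53 ± 0.29 and −0.46 ± 0.14 SE (adjusted p = 0.426 and 0.137). The groups did not overlap for Cebpb and did for Atf3. Of the 19 changes, 12 were below 0 and 7 above. With the replicate block 2 genes of that list were lower.

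In the list of NRF2, cysteine and glutathione genes, 1 of 18 was higher and none lower (2 and 1 with the block), and the median was 0.06. Nqo1, a quinone reductase, was at 9.21, 9.21 and 9.16 on the Ebf2-GFP positive arrays, against 8.70, 8.76 and 8.62 on the Ebf2-GFP negative arrays, a 1.41-fold rise (limma adjusted p = 0.00467) opposite in direction to Slc7a11. Gclc, the catalytic subunit of the enzyme that starts glutathione synthesis, differed by 0.34 ± 0.08 SE (adjusted p = 0.0558), and its partner subunit Gclm by 0.06 ± 0.05 SE (adjusted p = 0.632). The largest change of the list was that of Hmox1, −0.99 ± 0.36 SE, in the same direction as Slc7a11. Its groups did not overlap, but it did not pass (adjusted p = 0.211). Of the 18 changes, 12 were above 0 and 6 below.

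In the list of amino acid sensing by mTORC1, 1 of 27 genes was higher and none lower (2 and 1 with the block), with a median of 0.03. Castor1, an arginine sensor, was at 9.03, 9.04 and 9.21 on the Ebf2-GFP positive arrays, against 7.80, 7.90 and 8.31 on the Ebf2-GFP negative arrays. It rose 2.12-fold (1.09 ± 0.14 SE, limma adjusted p = 0.00676).

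In the amino acid metabolism list, 2 of 24 genes fell and none rose, with a median of −0.04. Glul, glutamine synthetase, fell 1.48-fold (−0.57 ± 0.07 SE, limma adjusted p = 0.0071). Gatm, the first enzyme of creatine synthesis, was at 7.38, 8.30 and 8.50 on the Ebf2-GFP positive arrays, against 10.5, 9.91 and 10.9 on the Ebf2-GFP negative arrays. It was 5.24-fold lower (−2.39 ± 0.36 SE, adjusted p = 0.012), with its arrays in the order of the macrophage marker mean in both groups, and without Ebf2-GFP negative replicate 1 it did not pass (0.0516).

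Of 21 other amino acid and peptide carriers outside the 7 families, 1 rose and 1 fell (1 and 3 with the block), with a median of 0.01. Slc25a13, the mitochondrial aspartate and glutamate carrier, was 1.19-fold higher (limma adjusted p = 0.0291), and Slc15a3, a lysosomal peptide and histidine carrier known from macrophages, was 1.92-fold lower with a mean below the dim mark (adjusted p = 0.014). The call of Slc25a13 ended without any 1 array (adjusted p up to 0.109), and that of Slc15a3 without Ebf2-GFP positive replicate 1 or 3 or Ebf2-GFP negative replicate 1 (up to 0.0604). In these 5 lists 0% to 9.52% of genes passed, where 6.49% of all genes did.

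**Figure D4:**
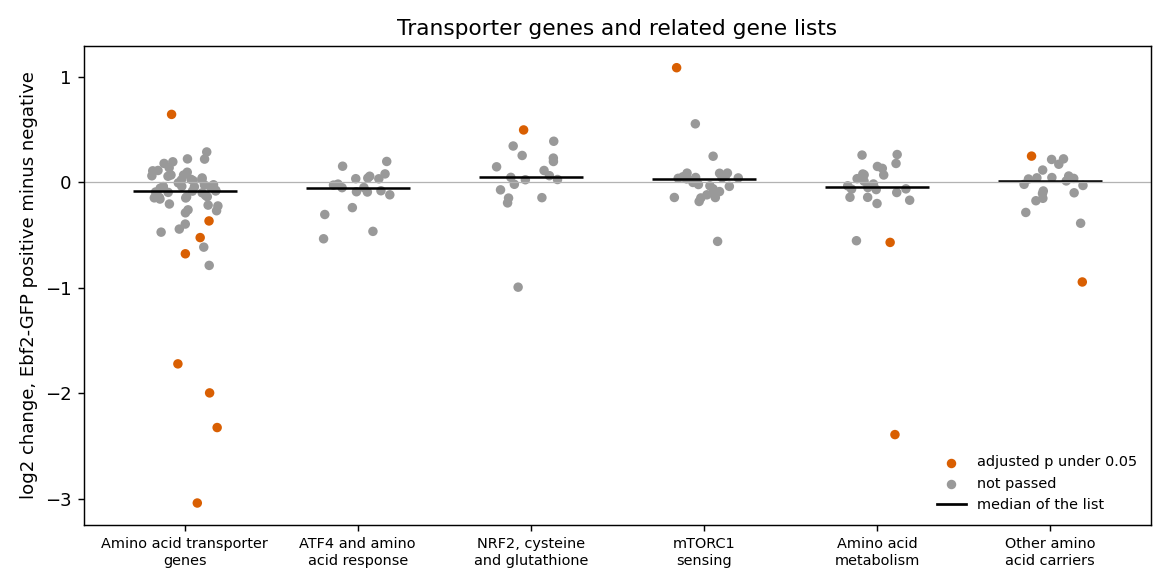
Log2 change (y axis, Ebf2-GFP positive minus Ebf2-GFP negative) of each gene of the transporter families and of 5 related lists (x axis), with genes that passed in orange and a bar at each list's median. The medians lie between −0.08 and 0.06, and the points furthest below 0 are Slc7a11, Gatm and Slc6a13.

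Markers of other cell types were counted in the same way. None of the 6 skeletal muscle markers and not the 1 measured erythroid marker passed limma's test, with 1 and 0 at an unadjusted p under 0.05. Of 7 endothelial markers Cdh5 fell and Emcn rose, of 4 Schwann and neural crest markers Fabp7 and Sox10 fell, of 5 neuronal markers Stmn2 fell and of 5 epidermal markers Cdh1 fell. Of these, the calls of Cdh5, Emcn, Sox10 and Stmn2 each ended when at least 1 of the arrays was left out (adjusted p up to 0.066, 0.0943, 0.0924 and 0.0638), and those of Fabp7 and Cdh1 did not. Of 7 chondrocyte markers all fell, led by Matn3 (4.59-fold), Hapln1 (3.99-fold), Col9a1 (3.79-fold) and Acan (4.12-fold), which are matrix genes of cartilage (limma adjusted p = 0.000171, 0.000527, 0.000527 and 0.000746). The calls of Comp and Sox9 ended with some arrays left out (adjusted p up to 0.124 and 0.0935), and those of the other chondrocyte markers did not. Of 7 fibroblast markers Thy1 and Lum fell and Pdgfra, Col1a1, Col1a2, Col3a1 and Dcn did not pass. The mean of the 7 lay between 12.5 and 12.6 on the Ebf2-GFP positive arrays and between 12.8 and 12.9 on the Ebf2-GFP negative arrays. The log2 changes were −1.95 for Thy1, −0.34 for Lum and between −0.08 and 0.19 for the other 5, so that gap is mostly Thy1. The call of Lum held only without Ebf2-GFP negative replicate 1 (adjusted p up to 0.103 without 1 other array), and that of Thy1 held without any 1. The part of these cell types in the values of the transporter genes was not tested.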

How the data were processed

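Cells of enzyme-digested embryos were sorted and their RNA biotin-labelled, per the labels' protocols. The authors deposited log2 values per probe set, made with RMA and limma, per the submitters' processing notes. For versions, library files and filters, the entry is: not given in the sources used here. A change common to most genes is removed by RMA, which gives the arrays 1 distribution of probe intensities, though not of probe set values.

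Of 41345 probe sets, 23521 list 1 gene in the platform table and were used, 1814 list several and 16010 none. For 1082 genes with several probe sets, 4 of them members, the one with the highest mean over 6 arrays was taken, which left 22180 genes. Of these, 59 met the definition by symbol. All genes were fitted together in limma 3.58.1 (lmFit, then eBayes; R 4.3.3) with no filter, Ebf2-GFP positive minus Ebf2-GFP negative. The method was tested on simulated data. Errors of means are SD, those of changes limma's moderated SE. Named genes are all members with an adjusted p under 0.1, the 10 brightest members, both SLC3 genes and up to 4 passing genes per list, and others were named for their role or chosen after their values were seen. The members and lists were chosen with earlier results of these data known.

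Replicate numbers appear in both groups' labels. Same-numbered arrays deviated together from their group means, with r of 0.408, 0.314 and 0.519. For that reason only, the numbers were treated as pairs in the replicate block. The main test was unpaired. Alternatives tried were quantile normalization, a replicate block, dropping dim genes, centring on medians, averaging or separately testing probe sets, other eBayes settings, array weights, stricter thresholds and leaving out each array. Promoter sequences are from RefSeq (GRCm38.p6), and 42 members matched. Plots were drawn with matplotlib 3.10.9.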

Additional observations from a re-analysis of the deposited data

How the results depend on the processing

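Over the alternatives, Slc7a11, Slc6a13 and Slc38a3 kept their direction and their call in every one of the settings run, although Slc7a11 changed by −1.74 with probe sets averaged, in place of −3.04. Slc7a2, Slc7a8 and Slc6a6 kept their direction throughout, and their calls ended with some arrays left out and at an adjusted p under 0.01, those of Slc7a2 and Slc6a6 at 2-fold as well. Slc43a2 was not tested without dim genes. The call of Slc1a5 ended with array weights (adjusted p = 0.0552) and with probe sets averaged. With the replicate block 2228 genes passed in place of 1439, and among members it added Slc3a2, Slc7a14, Slc6a12 and Slc6a17 and changed no other call. Slc38a9 was added by quantile normalization, by dropping dim genes and by array weights. Slc3a2 was also added by an eBayes trend (limma adjusted p = 0.0346) and Slc7a14 by median centring (0.0465). At an adjusted p under 0.01, 539 genes and 3 members passed, and at least 2-fold differences were found for 386 genes and 4 members. Leaving out 1 array gave 629 to 1067 genes and 3 to 7 members. The median change of the members was −0.139 without dim genes and −0.097 to −0.055 with 1 array left out.

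In the related lists, the block gave 2 ATF4 and amino acid response genes in place of 0, 3 NRF2 and glutathione genes in place of 1, 3 mTORC1 sensing genes in place of 1 and 4 other carriers in place of 2. The NRF2 list had 3 genes after quantile normalization, 2 without dim genes and 0 at 2-fold. The metabolism list had 1 gene with probe sets averaged, at an adjusted p under 0.01 and at 2-fold, in place of 2. The other carriers had 1 without dim genes, 1 with an eBayes trend, 0 at an adjusted p under 0.01 and 0 at 2-fold. With 1 array left out the counts were 0 to 1 (ATF4), 1 to 1 (NRF2), 1 to 2 (mTORC1 sensing), 1 to 2 (metabolism) and 0 to 1 (other carriers). The change of Slc3a1, near 0, turned sign after quantile normalization (0.032), median centring (0.00600) and with array weights (0.0056), and lay between −0.066 and 0.044 with 1 array left out. That of Slc7a5 lay between −0.116 and 0.043 with 1 array left out. The cause of these changes was not tested. Signal near background limits the 25 members below the dim mark.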
